A study of Mus musculus with 6 samples.

Results

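The genes described here are 10 genes of lipid handling and cholesterol efflux: Apoe, Abca1, Abcg1, Lpl, Cd36, Trem2, Gpnmb, Plin2, Fabp4 and Fabp5. They were taken by gene symbol from the raw counts of 6 libraries, and each of the 10 symbols matched 1 of the 46603 gene identifiers counted. The libraries came from enteric glial cells (EGCs), the supporting cells of the nervous system in the gut, which had been grown from neurospheres, floating clusters of progenitors, of whole intestine of E14.5 C57BL/6J mouse embryos and then spread on coated plates in serum. There were 3 control cultures, labelled NIL, and 3 cultures given lipopolysaccharide (LPS, a component of the bacterial cell wall) at 100 ng/ml for 12 h, which addresses what activation by a bacterial signal changes in these cells. The labels name no transgene or deletion in either group, and the sources used here gave no step that removed other cell types, pooled embryos or sex. Nothing in the labels stated that replicates were separate preparations, so p-values measure the spread between these 6 samples, which may be technical.

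Cells that take up lipoproteins hydrolyse the cholesterol esters in lysosomes, store the surplus in lipid droplets and return cholesterol to extracellular acceptors. ABCA1 and ABCG1 are the membrane transporters of this efflux, and apolipoprotein E (APOE) is an acceptor and a ligand of lipoprotein receptors. Lipoprotein lipase (LPL) frees fatty acids from triglycerides, CD36 and TREM2 bind lipids at the cell surface, and fatty acid binding proteins carry fatty acids in the cytosol. Many of these genes are active in lipid-laden macrophages and in reactive glia, and Abca1 and Abcg1 are textbook targets of the liver X receptors (LXR), which sense oxidised cholesterol.

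The start regions of 3 of the genes are printed because 1 of them belongs to a classical sterol target that is not among the called genes (Abca1) and the other 2 to the genes with the steepest falls in mean level (Trem2 and Gpnmb). They come from RefSeq on GRCm38.p6, which held a start region for 6 of the 10 genes (Abca1, Apoe, Cd36, Gpnmb, Plin2 and Trem2). Each runs 5′ to 3′ on the strand of its gene, from 150 bases before the start site to 30 bases from it onwards. Abca1 lies at chr4:53159866-53160045 on the minus strand, Trem2 at chr17:48346251-48346430 and Gpnmb at chr6:49036368-49036547, both on the plus strand. Capitals mark the matched letters.
Abca1: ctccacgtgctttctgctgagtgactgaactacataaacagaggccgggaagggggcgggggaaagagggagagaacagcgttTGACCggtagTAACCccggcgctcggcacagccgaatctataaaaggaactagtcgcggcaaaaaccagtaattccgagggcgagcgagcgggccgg
Trem2: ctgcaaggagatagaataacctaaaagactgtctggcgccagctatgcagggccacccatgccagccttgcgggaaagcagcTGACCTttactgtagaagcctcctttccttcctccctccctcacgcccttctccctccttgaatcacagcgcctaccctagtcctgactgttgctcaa
Gpnmb: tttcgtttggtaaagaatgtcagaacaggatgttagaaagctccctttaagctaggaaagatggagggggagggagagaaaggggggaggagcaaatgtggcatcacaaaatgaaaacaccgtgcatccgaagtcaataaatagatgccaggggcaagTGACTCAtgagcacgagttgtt

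Words were searched on both strands of the full windows, 250 bases before to 50 after each of 32851 start sites. In Abca1 the capitals are TGACC and TAACC spaced by 5 bases, starting 67 bases before the start site. This spaced word was chosen after the sequence had been seen, and 16 windows (0.0487%) held it. In Trem2 the capitals are TGACCT, the reverse complement of AGGTCA, the core bound by many nuclear receptors, starting 68 bases before the start site. The single AGGTCA word was also added with the sequences in view and stood in 16.3% of windows. The windows of Cd36 and Plin2 held it too, starting 228 and 218 bases before their start sites, outside the stretch of bases printed for the other genes. In Gpnmb the capitals are TGACTCA, the AP-1 word, starting at base 9 of the transcript, and 5.2% of windows held it. The RefSeq start of Gpnmb lay 28 bases from the gene start of the GENCODE annotation. AGGTCA pairs spaced by 4 bases (0.0152% of windows) or by 1 base (0.0396%), TCACGTGA (0.974%) and TCATGTG (3.77%) were not found in the windows of the 6 genes. Pairs were searched as exact AGGTCA letters, so their absence does not cover pairs with other letters. All matches given are matches of letters alone and say nothing on binding.

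All 10 genes passed the filter on low counts. Levels are given in CPM, counts per 1000000 counts of a library after correction for its composition, and SE is the standard error of a log2 fold change. Totals were 18775316 to 23664312 counts per library. The 10 genes together took 0.713%, 0.839% and 1.34% of the counts of control replicates 1, 2 and 3, and 0.339%, 0.327% and 0.664% of those of LPS replicates 1, 2 and 3. The share was thus lower in LPS than in every control culture, and within each group it was highest in replicate 3. Replicate 3 stood apart in both groups. Among the 10 genes, 8 had their highest control value in control replicate 3 and 8 their highest LPS value in LPS replicate 3. Libraries numbered 3 deviated together across genes (r = 0.613). Numbers 1 and 2 were not told apart in this way, and no label states a pairing. The fit with the replicate number as a block thus rests on a pairing read from these counts. It is given where it changes a call.

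Next, LPS and control cultures were compared. With edgeR, 2 of the 10 genes were lower in LPS at an adjusted p under 0.05, Cd36 and Gpnmb, against 6.71% of all 15226 genes tested. None of the 10 was called higher (0 at an unadjusted p under 0.05 as well, and 0 with DESeq2 and limma-voom), against 9.09% of all genes, and 15.8% of all genes were called in either direction. With the replicate block, 5 were called lower (Apoe, Lpl, Cd36, Trem2 and Gpnmb) against 14.9% of all genes, and 1 was called higher (Abcg1) against 15.4%. The control and LPS values did not overlap for Cd36, Trem2 and Gpnmb, all lower in LPS, a pattern held by 19.4% of all genes. Within the libraries of the same number, 6 genes were lower in LPS in each of the 3 comparisons (Apoe, Lpl, Cd36, Trem2, Gpnmb and Plin2), against 34.6% of all genes. The median log2 fold change of the 10 genes was -0.72, and that of all genes tested was -0.02.

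**Figure D1:**
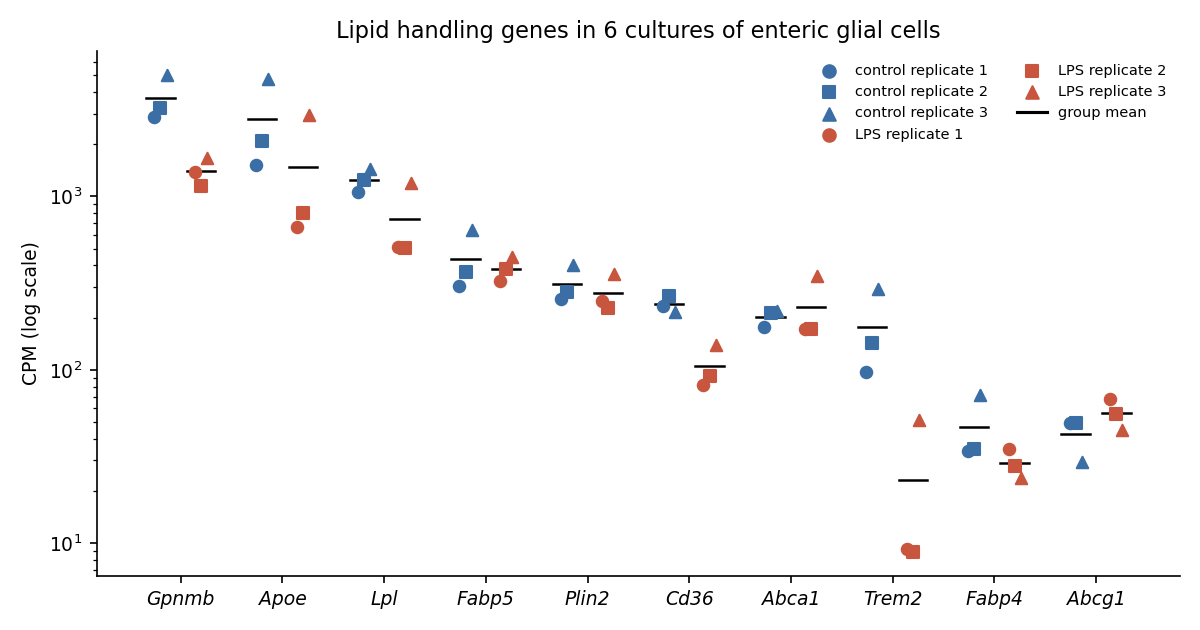
Level (CPM, log axis) of the 10 genes in each library, with control in blue, LPS in red, the replicate number as the symbol and the group mean as a bar. The control and LPS symbols separate fully for Cd36, Trem2 and Gpnmb, and the triangles of replicate 3 lie highest in both groups for Apoe, Lpl and Trem2.

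The genes of lipoprotein particles and their hydrolysis were examined first. Apoe (ENSMUSG00000002985, chr7:19696109-19699188) encodes the apolipoprotein that glia and macrophages secrete. It stood at 1523, 2078 and 4777 CPM in control replicates 1, 2 and 3 and at 667, 801 and 2967 CPM in LPS replicates 1, 2 and 3. LPS replicate 3 lay above 2 of the 3 control cultures, so the groups overlapped, while each LPS culture was below the control culture of the same number. The group means were 2793 ± 1741 and 1478 ± 1291 CPM (SD, n = 3 each). The fit on group alone gave -0.92 on the log2 scale (SE 0.72), which missed the threshold (edgeR adjusted p = 0.431), and over the 6 omissions of a library it ran from -1.93 to -0.27. Blocked on the replicate number, Apoe was called lower at -1.08 (SE 0.15; adjusted p = 0.0115), and with both libraries numbered 3 left out it was called with no block (-1.27, adjusted p = 0.000974). These fits called 30.3% and 43.0% of all genes, and the second was added after seeing the data. The log2 ratios within numbers 1, 2 and 3 were -1.19, -1.38 and -0.69.

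Lpl (ENSMUSG00000015568, chr8:68880491-68907448), the lipase gene, stood at 1061, 1238 and 1437 CPM in control and at 508, 505 and 1197 CPM in LPS. Replicates 1 and 2 with LPS were below all control cultures, and LPS replicate 3 fell between control replicates 1 and 2. On the log2 scale the difference was -0.76 (SE 0.38; edgeR adjusted p = 0.227). Blocked on the replicate number, Lpl fell by 0.87 (SE 0.22; adjusted p = 0.0434). Without LPS replicate 3, Lpl was called with no block (-1.30, adjusted p = 0.00492), and the mildest value over the omissions was -0.54, without LPS replicate 2. Of the exonic 50-base words of Lpl, 1.14% also occur in another gene.

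The efflux transporters came next. Abca1 (ENSMUSG00000015243, chr4:53030787-53159895) exports cholesterol and phospholipid to lipid-poor apolipoproteins. Its level was 176, 213 and 217 CPM in control and 173, 172 and 346 CPM in LPS. LPS replicate 3 was the highest of the 6, and the other LPS cultures were just below the lowest control. The fitted log2 fold change was 0.19 (SE 0.30; edgeR adjusted p = 0.716; 0.11 with the block, adjusted p = 0.701). It turned to -0.23 without LPS replicate 3, so its direction rested on that library.

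Abcg1 (ENSMUSG00000024030, chr17:31057675-31117988), which passes cholesterol to mature high-density lipoprotein, was at 49.1, 49.4 and 29.5 CPM in control and at 67.6, 55.7 and 45.0 CPM in LPS. The LPS culture exceeded the control culture in each number, and LPS replicate 3 was below control replicates 1 and 2. Of the 10 genes, Abcg1 alone was lowest in replicate 3 in both groups. Its log2 fold change of 0.40 (SE 0.25; edgeR adjusted p = 0.329) missed the threshold, and it was called with the replicate block (0.41, SE 0.10, adjusted p = 0.0412) and with both libraries numbered 3 left out (0.35, adjusted p = 0.0277). These fits called 30.3% and 43.0% of all genes, and the second was added after seeing the data. Omitting control replicate 3 or LPS replicate 1 lowered the log2 fold change to 0.20 or 0.24 (adjusted p = 0.491 or 0.617). An rRNA gene of the annotation, Gm25447, overlaps Abcg1 on the same strand, and the strand setting of the counting is not given in the sources used here.

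**Figure D2:**
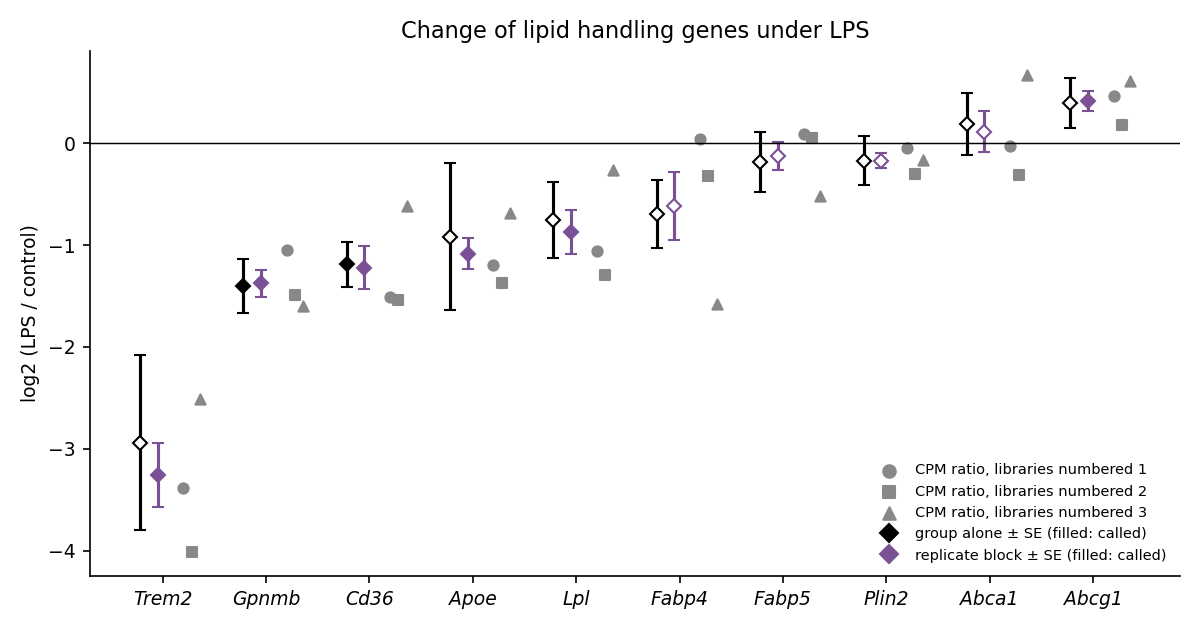
Change of the 10 genes, as log2 of LPS over control, with the fitted value ± SE of the fit on group alone (black) and with the replicate block (purple), filled where called, and the CPM ratio of same-numbered libraries in grey. Trem2, Gpnmb, Cd36, Apoe and Lpl lie below 0 in all 3 ratios, whereas Abca1, Fabp4 and Fabp5 have ratios on both sides.

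The surface proteins held both genes called without the block. Cd36 (ENSMUSG00000002944, chr5:17781690-17888801) is a scavenger receptor for oxidised lipoproteins and long-chain fatty acids. Its level was 234, 266 and 215 CPM in control and 82.1, 91.7 and 139.9 CPM in LPS. Every LPS culture lay below every control culture, and replicate 3 was the lowest control and the highest LPS culture. The means were 238 ± 25.7 and 105 ± 31.0 CPM (SD, n = 3 each), 2.28-fold lower in LPS. Cd36 fell by 1.19 on the log2 scale (SE 0.22; edgeR adjusted p = 0.0214). The call was lost without control replicate 1 or 2 (edgeR adjusted p = 0.0785 or 0.0958). Without LPS replicate 1 or 2 it was lost as well (adjusted p = 0.0653 or 0.0927). Each of these fits called fewer of all genes: 4.28%, 3.15%, 5.42% and 4.41% in that order, against 15.8% with all 6 libraries. Over the 6 omissions the log2 fold change stayed between -1.46 and -1.04.

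Gpnmb (ENSMUSG00000029816, chr6:49036546-49070929) encodes a lysosomal and surface glycoprotein that is abundant in lipid-loaded macrophages. It was among the most abundant transcripts of the control cultures, at rank 12 by mean CPM, and at rank 66 in LPS. It stood at 2863, 3229.8 and 5048 CPM in control and at 1386, 1150.3 and 1671 CPM in LPS. The highest LPS culture was well under the lowest control culture. The means of 3714 ± 1170.1 and 1403 ± 261 CPM (SD, n = 3 each) differed 2.65-fold. Gpnmb fell by 1.40 on the log2 scale (SE 0.26; edgeR adjusted p = 0.0224). Its call was likewise lost on omission of control replicate 1 or 2 (adjusted p = 0.0507 or 0.0797) and of LPS replicate 1 or 2 (adjusted p = 0.0837 or 0.0944).

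Trem2 (ENSMUSG00000023992, chr17:48346401-48354147), a receptor for lipids and APOE on macrophages and microglia, had the most negative fold change of the 10. It stood at 96.5, 144 and 292 CPM in control and at 9.24, 8.92 and 51.1 CPM in LPS. The groups did not overlap, and the replicate 3 culture was the highest of both. Same-numbered libraries differed 10.4-, 16.1- and 5.71-fold. With group alone the log2 fold change of -2.94 (SE 0.86) missed the threshold (edgeR adjusted p = 0.0715), and over the 6 omissions of a library it ran from -4.29 without LPS replicate 3 to -2.36 without control replicate 3. With the replicate block it was -3.26 (SE 0.31) and was called (adjusted p = 0.00491). It was also called without LPS replicate 3 (adjusted p = 0.00884), with library size alone as scaling (0.0491), with DESeq2 (0.00105) and with limma-voom (0.0408).

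The genes of fatty acid storage and transport, Plin2, Fabp5 and Fabp4, were not called on group alone or in any of the 16 alternatives. Plin2 (ENSMUSG00000028494, chr4:86648386-86670060) encodes the coat protein of lipid droplets. Its level was 257, 282 and 400.0 CPM in control and 248, 229 and 357 CPM in LPS, with broad overlap. The fitted log2 fold change of -0.17 (SE 0.24; edgeR adjusted p = 0.674) became 0.06 without control replicate 3. Of its 50-base words, 2.57% occur in the gene model Gm12551, so reads there could be split.

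Fabp5 (ENSMUSG00000027533, chr3:10012548-10016607), the fatty acid binding protein of epidermis and many other cells, stood at 305, 368 and 638 CPM in control and at 325, 381 and 447 CPM in LPS. Both groups spanned similar values apart from the high control replicate 3. Its log2 fold change was -0.19 (SE 0.30; edgeR adjusted p = 0.713), and without control replicate 3 it was 0.20. Over all its annotated transcripts, Fabp5 shares 5.48% of its 50-base words with gene models such as Gm6166, Gm14328 and Fabp5l2. This is not a share of reads, and the part of its counts affected was not measured.

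Fabp4 (ENSMUSG00000062515, chr3:10204088-10208576), the fatty acid binding protein of adipocytes and macrophages, was at 34.0, 34.8 and 71.1 CPM in control and at 34.9, 27.9 and 23.8 CPM in LPS. Replicates 1 and 2 of both groups lay close together, and the difference of means came from control replicate 3. A log2 fold change of -0.69 was fitted (SE 0.33; edgeR adjusted p = 0.213; with the block -0.62, adjusted p = 0.225), and -0.24 without control replicate 3. The log2 ratios within numbers 1, 2 and 3 were 0.04, -0.32 and -1.58. Adipocyte markers were at or near 0: Adipoq averaged 0.309 CPM in control and 0.125 CPM in LPS, Lep had no count, and 7 of the 8 markers on that list were below the filter, the exception being Fasn.

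Levels were then compared between the genes per kilobase of exon, using the principal transcript of each gene because transcripts that retain introns lengthen the union of exons in some models. In control, Apoe was highest at 1984 CPM per kb, followed by Gpnmb at 1003, Fabp5 at 443, Lpl at 303, Plin2 at 166, Trem2 at 163, Cd36 at 70.1, Fabp4 at 52.1, Abca1 at 19.7 and Abcg1 at 7.31 CPM per kb. The ranges over the 3 control cultures overlapped between the neighbours Apoe and Gpnmb, Fabp5 and Lpl, Plin2 and Trem2, and Cd36 and Fabp4, and did not overlap between the other neighbours. In LPS, Trem2 was at rank 9 with 21.2 CPM per kb and its range overlapped those of Abca1 and Abcg1. With the union of all exons as length, Cd36, Trem2, Abca1 and Fabp4 took ranks 6, 7, 8 and 9 in control, in place of 7, 6, 9 and 8. With the longest transcript they took the same ranks as with the union. Fabp5 then took rank 5 at 135 CPM per kb, below Lpl and Plin2.

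Since most of these genes are known from macrophages, macrophage markers were measured in the same libraries. The summed level of 16 markers was 4489.8, 5891 and 14013 CPM in control replicates 1, 2 and 3, and 4357, 5662 and 21815 CPM in LPS replicates 1, 2 and 3. All 16 markers had their highest control value in control replicate 3 and their highest LPS value in LPS replicate 3. Adgre1 was the 1 marker called, higher in LPS (edgeR adjusted p = 0.0452), and its call was lost on omission of replicate 1 or 2 of either group (adjusted p up to 0.169). Blocked on the replicate number, the fit called 5 markers higher and 4 lower, against 15.4% and 14.9% of all genes. Glial markers were present, with a summed level of 10 markers between 801 and 1088 CPM, and of these S100b (22.2 to 5.92 CPM) and Cdh19 (143 to 90.3 CPM) were called lower in LPS, both calls being lost on omission of replicate 1 or 2 of either group and that of Cdh19 also without LPS replicate 3 (adjusted p up to 0.0906 and 0.163). All 8 smooth muscle markers were called lower, with a median log2 fold change of -1.83 and summed levels of 2669, 2691 and 2449 CPM in control against 963, 947 and 689 CPM in LPS; Acta2 lost the call on omission of control replicate 1 or 2, Lmod1 without control replicate 2 and Myh11 on each omission other than that of control replicate 3 (adjusted p up to 0.0636, 0.0533 and 0.144). The 8 mesenchymal markers summed to 15124 to 16295 CPM per library, and of these Dcn (1203 to 2244 CPM) and Pdgfra (176 to 248.7 CPM) were called higher in LPS, both calls being lost on omission of replicate 1 or 2 of either group (adjusted p up to 0.0745 and 0.0651). Of 6 endothelial markers tested, Vwf was called lower (33.1 to 8.67 CPM; adjusted p = 0.0430, and up to 0.135 on omission of control replicate 2 or any LPS replicate), and the block called 3 higher and 1 lower. In bulk RNA, fewer cells of a type and less RNA per cell cannot be told apart, and the part of the content of these cell types in the values above was not tested.

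The level of each gene was also divided by the macrophage marker sum of its library. Apoe gave 0.339, 0.353 and 0.341 in the control cultures, nearly the same value in each, and 0.153, 0.141 and 0.136 in the LPS cultures. Trem2 gave 0.0215, 0.0244 and 0.0208 in control and 0.00212, 0.00157 and 0.00234 in LPS. For both genes the spread between replicates seen in CPM was far smaller on this scale, the groups did not overlap, and this held without Lyz2, the most abundant marker, and without Adgre1. Gpnmb gave 0.638, 0.548 and 0.360 in control and 0.318, 0.203 and 0.0766 in LPS. Its groups were also apart, but overlapped once Adgre1 was left out, and its ratio was lowest where the markers were highest. For the other 7 genes the ratios of the groups overlapped. Cd36, for example, gave 0.0521, 0.0451 and 0.0154 in control and 0.0189, 0.0162 and 0.00641 in LPS.

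**Figure D3:**
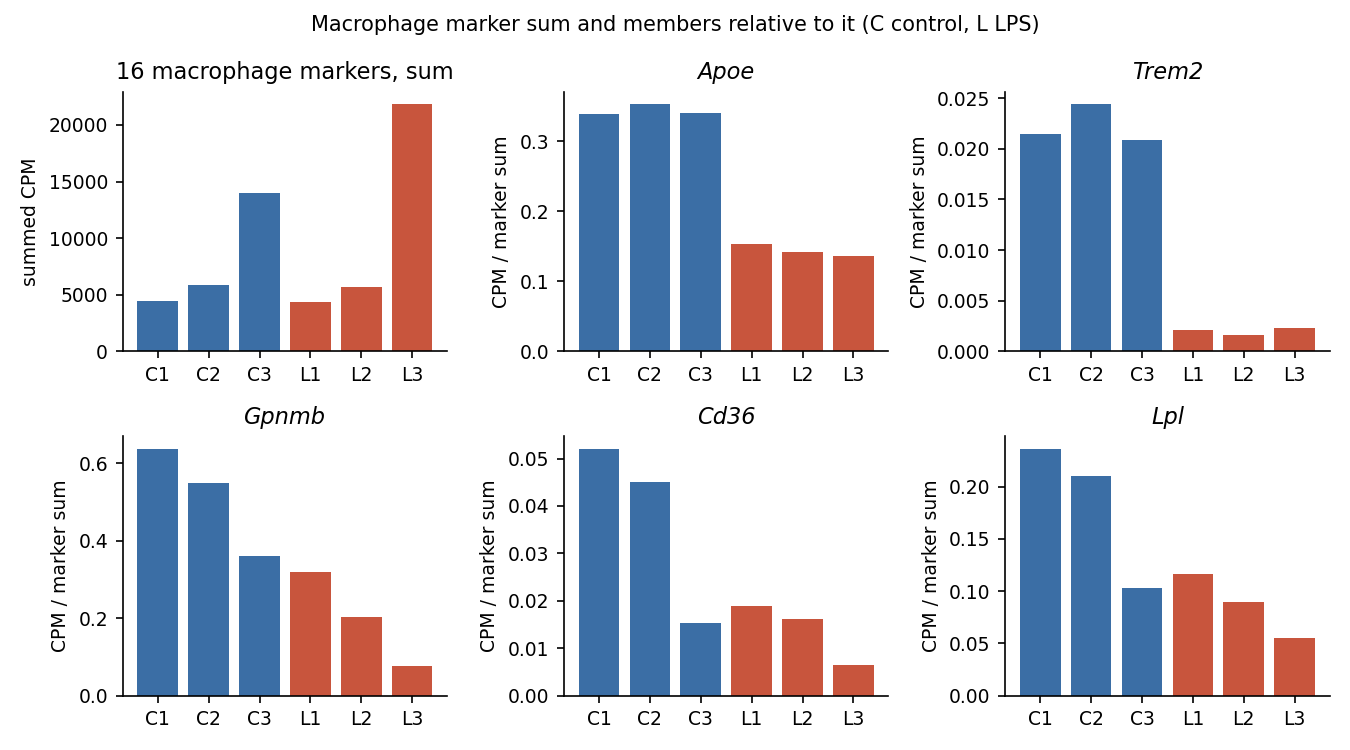
Summed CPM of 16 macrophage markers in each library (top left) and the CPM of 5 genes divided by that sum, with control in blue (C1 to C3) and LPS in red (L1 to L3). The Apoe and Trem2 ratios are level within each group and lower in LPS, while those of Gpnmb, Cd36 and Lpl fall where the marker sum is high.

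Finally, 126 related genes of lipid handling were counted, of which 104 were tested. Of these, 18 were called higher and 10 lower, against 9.09% and 6.71% of all genes, and their median log2 fold change was 0.13. The split was 17 higher and 15 lower with upper-quartile scaling, and 16 and 15 with library size alone. For all genes it was 1384 higher and 1022 lower, 1050 and 1589 with upper-quartile scaling, and 986 and 2054 with library size alone. With the replicate block, 25 of the related genes were called higher and 27 lower, against 15.4% and 14.9% of all genes. By list, the block called 2 of 15 sensors lower, and 7 of 17 uptake genes higher and 5 lower. It called 3 of 20 droplet genes higher and 4 lower, and 9 of 23 TREM2-related genes higher and 9 lower. Of the 21 genes picked by rule from these lists, 5 (Pparg, Marco, Acsl1, Acsl4 and Lgals3) were called without each of the 6 libraries in turn, and 16 lost the call in at least 1 omission. For the genes described below, the losses came on omission of replicate 1 or 2 of either group, and for Acsl5 also of control replicate 3.

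Of 15 sterol and fatty acid sensors, 1 was called. Pparg, the nuclear receptor that drives Cd36 and Fabp4 in macrophages and adipocytes, was at 10.4, 11.8 and 13.0 CPM in control and at 2.52, 1.78 and 1.88 CPM in LPS. It fell by 2.50 on the log2 scale (SE 0.20; edgeR adjusted p = 0.00157). Nr1h3, which encodes LXRα and was picked after its values were seen, was at 8.86, 7.44 and 5.83 CPM in control and at 17.4, 14.3 and 56.5 CPM in LPS, apart but not called (adjusted p = 0.0694; 0.0761 with the block). It was called in 4 of the 16 alternatives, among them the omission of LPS replicate 3 (adjusted p = 0.0227), and omissions of 1 library gave log2 fold changes between 1.10 and 2.33. Of 12 other ABCA and ABCG transporters tested, 1 was called: Abca6, which fell from 5.12 to 1.97 CPM (highest adjusted p over the omissions 0.0799). Blocked on the replicate number, 2 of these transporters were called higher and 5 lower, against 15.4% and 14.9% of all genes.

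Of 17 lipoprotein receptors and lysosomal uptake genes, 6 were called higher and 3 lower. Marco, a scavenger receptor of macrophages, was at 0.975, 2.66 and 1.53 CPM in control and at 921, 1509.5 and 3918 CPM in LPS (log2 fold change 10.26; edgeR adjusted p = 0.00212). The scavenger receptor genes Olr1 (148 to 335 CPM) and Cxcl16 (49.2 to 368 CPM) also rose. So did Npc2, which hands cholesterol out of the lysosome, from 662 to 1173 CPM (adjusted p = 0.0125), named after its values were seen. Lipa, the lysosomal cholesterol ester hydrolase, fell from 619 to 269 CPM (adjusted p = 0.0235), as did Sort1 (78.1 to 32.3 CPM) and Scarb2 (860.3 to 581 CPM). The highest adjusted p over the omissions was 0.0855 for Olr1, 0.0544 for Cxcl16, 0.0765 for Npc2, 0.101 for Lipa, 0.0855 for Sort1 and 0.118 for Scarb2. Marco, Olr1 and Cxcl16 thus rose in the libraries in which Cd36 fell.

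Of 12 lipase regulators and apolipoproteins tested, 2 were called higher and 1 lower. Angptl4, a secreted inhibitor of LPL, was at 4.41, 3.54 and 10.0 CPM in control and at 180.4, 198 and 40.9 CPM in LPS (log2 fold change 4.54, SE 0.76; edgeR adjusted p = 0.0165). In replicate 3, where Lpl was highest in both groups, Angptl4 was the highest of the controls and the lowest of the LPS cultures. Lipg, endothelial lipase, rose from 13.9 to 32.0 CPM, and Pltp, the phospholipid transfer protein, fell from 153 to 86.9 CPM. Over the omissions the adjusted p reached 0.0869 for Angptl4, 0.119 for Lipg and 0.151 for Pltp. The neighbours of Apoe on the chromosome, Apoc1 (0.908 and 1.18 CPM in control and LPS) and Apoc2 (6.03 and 6.97 CPM), were not called.

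Of 20 lipid droplet and acyl-CoA genes tested, 3 were called higher and 2 lower. The 3 higher genes were acyl-CoA synthetases, which activate fatty acids: Acsl1 rose from 31.0 to 320.4 CPM (edgeR adjusted p = 0.000695), Acsl4 from 115 to 249.7 CPM and Acsl5 from 120.3 to 262 CPM. Plin3, a droplet coat protein related to Plin2, fell from 95.8 to 65.0 CPM (adjusted p = 0.00667). Over the omissions the adjusted p reached 0.162 for Acsl5 and 0.0510 for Plin3. Among 5 other fatty acid and retinoid binding proteins tested, Fabp7 rose from 2.55 to 6.27 CPM, with an adjusted p up to 0.0723 over the omissions.

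Of 23 TREM2 partners and lipid-associated macrophage genes, 5 were called higher and 2 lower. Tyrobp, the adaptor through which TREM2 signals and also 1 of the 16 macrophage markers, was at 114, 161 and 327 CPM in control and at 66.3, 89.6 and 291 CPM in LPS. Its log2 fold change of -0.43 (SE 0.67; edgeR adjusted p = 0.706) became -0.60 with the block (adjusted p = 0.0469), beside -2.94 for Trem2; the difference between them was not tested. Tyrobp was at -1.37 without LPS replicate 3 and turned to 0.13 without control replicate 3. Adam17, a protease that cleaves TREM2 from the surface, rose from 132 to 276 CPM (adjusted p = 0.0104), and Cst7 rose from 1.50 to 18.7 CPM. Lgals3, which encodes galectin-3, was at 719.7, 801 and 976 CPM in control and at 343, 300.3 and 333 CPM in LPS. It fell by 1.36 on the log2 scale (SE 0.14; adjusted p = 0.00346), and Clec7a fell from 36.9 to 13.8 CPM. Over the omissions the adjusted p reached 0.0659 for Adam17, 0.115 for Cst7 and 0.0639 for Clec7a.

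**Figure D4:**
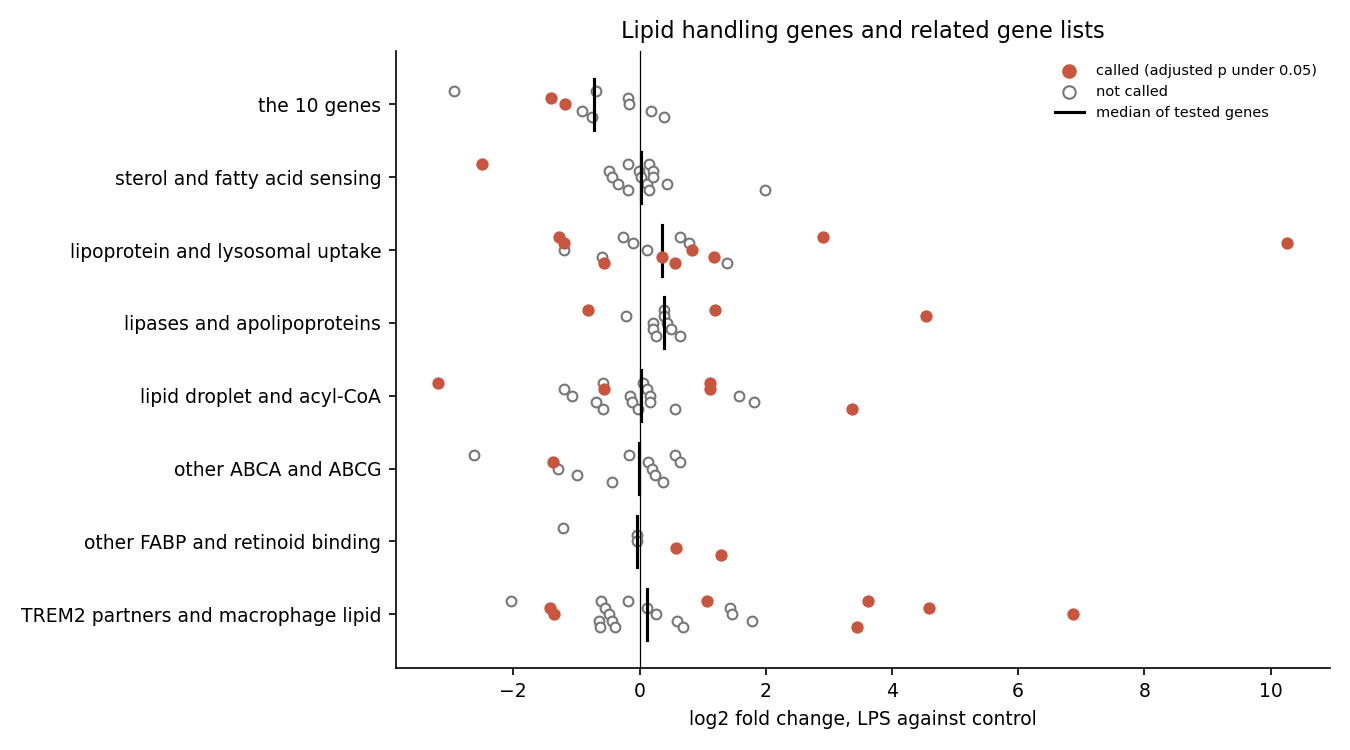
Fitted log2 fold change of LPS against control for the 10 genes and 7 related lists, 1 point per tested gene, filled where called, with the median of each row as a bar. The median of the 10 genes is -0.72, and those of the other rows lie between -0.03 and 0.39.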

How the data were processed

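Poly(A) RNA of 6 cultures was sequenced from stranded libraries. The authors deposited raw counts per gene for each library. The submitters' processing notes name cutadapt 1.15, Bowtie2 2.3.3.1, STAR 2.5.2b, SAMtools 1.5 and featureCounts 1.5.3, and GRCm38. The strand setting and the treatment of reads with several alignments are not given in the sources used here. Coordinates are GENCODE M21 on GRCm38. A series-wide table was not used.

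Here, genes were filtered with filterByExpr (minimum count 10), scaled with TMM factors and compared with the two-sided edgeR 4.0.16 quasi-likelihood test (R 4.3.3) on group alone, with Benjamini-Hochberg adjustment over 15226 genes and calls under 0.05. SE is the absolute log2 fold change over the square root of F. CPM used TMM-corrected library sizes, and shared words are 50-base words. Totals were 18775316 to 23664312 counts, and 3 counts correspond to 0.124 to 0.167 CPM, counting error only. The test was checked on simulated counts. What a replicate number denotes is not given in the labels. Deviations of same-numbered control and LPS libraries correlated across genes (r = 0.513, 0.334 and 0.613 for numbers 1, 2 and 3), so the numbers were treated as pairs. Control 1 with LPS 2 and control 2 with LPS 1 gave 0.419 and 0.323, so the data set number 3 apart but did not tell numbers 1 and 2 from each other. Alternatives were other scalings, other filters, DESeq2 1.42.0, limma-voom (limma 3.58.1), the replicate block and each library left out. Leaving out both libraries numbered 3 and principal transcript lengths were added after seeing the data. Genes named from the lists were those called and reaching a group mean of 5 CPM, at most 3 with the largest and 3 with the smallest change per list. Some list genes that entered the counts are not reported here by name. The 10 genes and all lists were chosen with earlier results of these data known.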

Additional observations from a re-analysis of the deposited data

How the results depend on the processing

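Cd36 and Gpnmb were called lower under each scaling, filter and tool tried. The number of the 10 genes called lower was 5 with the replicate block, 5 without both libraries numbered 3 and 5 with both changes; the number called higher was 1 in each of these. Leaving out each replicate in turn gave 0 to 4 called lower and 0 called higher. The direction reversed for Abca1 (-0.23 to 0.36 over the omissions; -0.15 without both libraries numbered 3 and -0.14 with the block added), Plin2 (-0.39 to 0.060 over the omissions) and Fabp5 (-0.38 to 0.20 over the omissions; 0.091 without both libraries numbered 3 and 0.092 with the block added). The cause was not tested. Related genes called higher numbered 4 to 25 over the omissions, 40 without both libraries numbered 3 and 43 with the block added; those called lower numbered 16 with DESeq2, 27 with the replicate block, 2 to 20 over the omissions, 30 without both libraries numbered 3 and 32 with the block added. All genes called higher numbered 2079 with DESeq2, 2343 with the replicate block, 379 to 1964 over the omissions, 3498 without both libraries numbered 3 and 3987 with the block added; those called lower numbered 1589 with upper-quartile factors, 2054 with library size alone, 1673 with DESeq2, 2273 with the block, 112 to 1426 over the omissions, 3159 without both libraries numbered 3 and 3722 with the block added. The 4 libraries that remain without number 3 thus called 43.0% of all genes tested with no block. Upper-quartile factors and library size alone shifted the median change over all genes (log2) to -0.12 and -0.18. None of the 10 genes was at the floor of 3 counts in a library, and an effect of depth on the calls was not tested.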

Other observations

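With the replicate block, 9 of the 23 TREM2 partners and lipid-associated macrophage genes were called higher and 9 lower, against 15.4% and 14.9% of all genes. Of the lower ones, 3 abundant transcripts not called on group alone with all 6 libraries are given here, picked after their values were seen, whereas the abundant Ctsl was not called with the block (adjusted p = 0.160). Spp1, which encodes osteopontin, was at 1619.6 (control replicate 1), 1890.0 (control replicate 2) and 6277 CPM (control replicate 3), and at 1179.6, 1109 and 3953 CPM in the LPS cultures of the same numbers. Its log2 fold change was -0.65 (SE 0.74; edgeR adjusted p = 0.598), and -0.63 (SE 0.08; adjusted p = 0.0105) with the block, but it turned to 0.26 without control replicate 3 and was -1.51 without LPS replicate 3. The protease gene Ctsd gave -0.61 (SE 0.35; adjusted p = 0.291) and, with the block, -0.62 (SE 0.08; adjusted p = 0.00832), and Ctsb gave -0.54 and -0.56 (adjusted p = 0.457 and 0.0135). Without LPS replicate 3 and without control replicate 3, Ctsd gave -0.97 and -0.28, and Ctsb -1.02 and -0.11.

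Of the lipid droplet genes, Nceh1 and Mgll were picked in the same way, and Lipe and Pnpla2, which also release stored lipid, were not called with the block (adjusted p = 0.181 and 0.280). Nceh1, a cholesterol ester hydrolase of macrophages, was at 173, 187 and 264 CPM in control and at 70.2, 69.2 and 156 CPM in LPS, with no overlap. Its log2 fold change of -1.08 (SE 0.37; edgeR adjusted p = 0.108) became -1.16 (SE 0.15; adjusted p = 0.00942) with the block, and it was also called without LPS replicate 3 and no block (adjusted p = 0.00820). Mgll, monoglyceride lipase, was at 45.7, 36.7 and 16.9 CPM in control and at 20.7, 16.4 and 6.44 CPM in LPS (adjusted p = 0.186, and 0.00236 with the block), and like Abcg1 it was lowest in replicate 3 of both groups.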
